A study of Mus musculus with 23 samples.

Results

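The genes described here are 10 that link the FoxO transcription factors to loss of muscle protein: Foxo1, Foxo3, Foxo4, Fbxo32, Trim63, Fbxo30, Klf15, Gadd45a, Hdac4 and Eif4ebp1. They were taken by symbol from the deposited gene tables, in which all 10 were present among 32793 rows. Their levels were compared in C2C12 cells, an established mouse myoblast line, that were labelled either control or Runx1KO. RNA was taken from growing cells (day 0, 20% fetal bovine serum) and after 1, 3 and 6 days in 2% horse serum, in which C2C12 cells leave the cell cycle and fuse into myotubes. Sample titles call the last time point day 6 and the series text calls it day 5, and the titles were followed. Poly(A) RNA gave 23 libraries, 3 in each of the 8 groups except control at day 0, of which 2 were analysed here. The labels do not say how Runx1 was disrupted, whether the knockout was 1 clone, or whether replicates were separate cultures, so p-values measure only the spread between these libraries, which may be technical.

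FoxO factors are forkhead transcription factors that the kinase Akt, acting downstream of insulin and IGF receptors, keeps out of the nucleus. In muscle that is denervated, unused or starved they enter the nucleus and raise genes of the ubiquitin-proteasome and autophagy pathways, and the muscle shrinks. Fbxo32 (atrogin-1) and Trim63 (MuRF1) encode the ubiquitin ligases best known as marks of this state, and Runx1 is a transcription factor that rises in denervated muscle and limits its atrophy. The design asks how these mRNAs differ between genotypes on each day and how they move as cells differentiate. Protein, phosphorylation and nuclear location, through which much of FoxO, HDAC4 and 4E-BP1 activity is set, were not measured.

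The mRNA of the targeted gene was higher, not lower, in libraries labelled Runx1KO. A gene-level value does not show whether the gene was disrupted. Runx1 mRNA stood at 84 and 83.9 CPM (counts scaled to the TMM-adjusted library size) in the control libraries at day 0, and at 118, 119 and 122 CPM in those labelled Runx1KO. On day 6 it was 146, 148 and 165 CPM in control and 297, 320 and 315 CPM in libraries labelled KO. The log2 fold change, labelled KO over control, was 0.51 ± 0.0944 (SE) on day 0, 0.35 ± 0.083 on day 1, 0.54 ± 0.0824 on day 3 and 1.02 ± 0.0828 on day 6. Adjusted p was 0.000362, 0.00151, 1.09e-05 and 6.11e-10 in that order. The files do not show the edit itself, so each direction below is that of the libraries labelled KO.

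Total counts ran from 22197606 to 23684077 per library, and 3 counts, taken as the floor, correspond to 0.126 to 0.14 CPM. All 4 myoblast and myogenic markers (Myod1, Myf5, Des and Pax7) were above 0 in every group. The summed level of 16 myotube genes, in TPM (which also scales for transcript length), was 4.36 to 8.26 at day 0, and on day 6 it was 2880 to 3540 in control and 16700 to 19800 in libraries labelled KO. All 16 were higher in libraries labelled KO on days 3 and 6, and 12 were higher and 1 lower on day 1. All 10 cell cycle genes were higher there on days 1 and 3, 8 were higher and 1 lower on day 6 (median log2 0.51), and 1 was higher and 1 lower at day 0. All 10 interferon-response genes were higher on days 3 and 6, at 642 to 821 TPM in sum on day 6 against 31 to 34.3. Among haematopoietic markers, the day 6 sum was 15.4 to 17.3 TPM in libraries labelled KO and 4.22 to 7.88 in control, with Ptprc and Cd3e at 0 in the former. The 6 adipocyte markers summed to 18.6 to 20.2 TPM in control and 10.3 to 11.4 TPM in libraries labelled KO at day 0, and to 8.29 to 9.82 and 4.45 to 5.2 TPM on day 6, with Adipoq, Cidec and Lep at 0 in every group. The 1 adipocyte marker that was tested was lower in libraries labelled KO on all 4 days (log2 -0.72, -0.83, -1.01 and -0.82), and its part in the results was not tested. Summed osteoblast, endothelial and Schwann cell markers stayed at or below 8.66, 0.65 and 1.03 TPM. Replicate 2 of the day 1 group labelled KO stood apart: 20.6% of tested genes lay more than 1.5-fold from its group mates, against 6.01% to 9.23% in the other libraries, and its deviations followed transcript GC content across genes (r = -0.62, a description, since genes are not independent replicates). Scaling also matters for direction. With limma on log2(TPM + 0.1) the median of all genes was -0.11 on day 3 and -0.12 on day 6 for labelled KO over control, in place of 0.04 and 0.00, and 0.20 in place of 0.05 for control day 6 over day 0. Higher genes were 42.1%, 54.4%, 55.5% and 51.4% of those called between genotypes on days 0, 1, 3 and 6, against 29.5% by library size alone on day 0 and 43.3%, 34.3% and 34.7% on the TPM scales on days 1, 3 and 6. On the TPM scale this share was 61.2%, 64.6% and 63.9% for control days 1, 3 and 6 against day 0, in place of 49.6%, 50.1% and 51.2%. For libraries labelled KO on day 1 against day 0 it was 66.3% in place of 51.9%, and for the interactions of genotype with day described below it was 51.4% in place of 66.8% on day 1 and 45.2% in place of 62.1% on day 3.

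Levels per transcript length ordered the 10 genes from Eif4ebp1 to Klf15. In control cells on day 6, Eif4ebp1 stood at 680 ± 63.5 TPM (SD, n = 3) and Gadd45a at 146 ± 22.1 TPM. Fbxo32 at 51.1 ± 9.49 TPM, Foxo3 at 32.5 ± 10 TPM, Foxo4 at 23.4 ± 2.85 TPM and Foxo1 at 16.2 ± 2.71 TPM followed. Fbxo30 (8.71 ± 1.6 TPM), Hdac4 (6.14 ± 1.19 TPM) and Trim63 (6.01 ± 1.52 TPM) were lower still, and Klf15 was at 0.25 ± 0.03 TPM. Foxo3 and Foxo4 overlapped in range (23.2 to 43.1 and 21.2 to 26.6 TPM), as did Hdac4 and Trim63 (4.86 to 7.2 and 4.3 to 7.21 TPM). In libraries labelled KO on day 6 Trim63, at 19.3 ± 1.18 TPM, lay above Foxo4, Foxo1, Fbxo30 and Hdac4, and its lowest library (18 TPM) fell inside the range of Foxo4 (15.2 to 19.9 TPM).

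**Figure D1:**
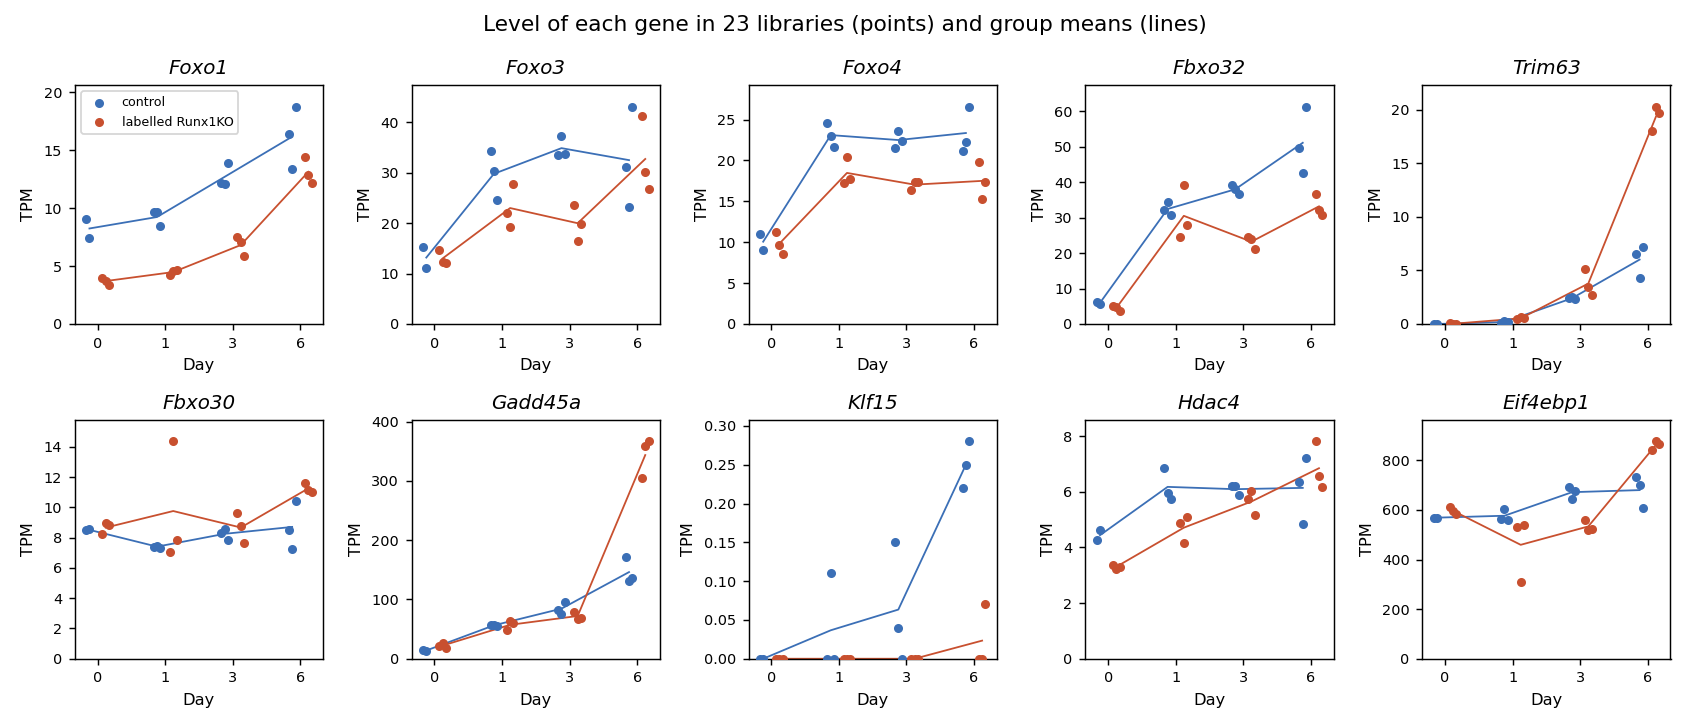
Level in TPM (y axis, linear, from 0, with a scale of its own in each panel) against day (x axis, equally spaced) for each of the 10 genes. Points are libraries, lines join group means, and control is blue and labelled Runx1KO is red. Trim63 and Gadd45a part on day 6, Foxo1 is apart on days 0, 1 and 3, and 1 Fbxo30 point on day 1 lies at 14.4 TPM.

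Of the 10 genes, 9 passed the filter on low counts and were tested in edgeR over 14187 genes, while Klf15 had at most 7 counts in any library and did not pass. Between genotypes, 3 of the 9 passed an adjusted p of 0.05 on day 0 (1 higher and 2 lower in libraries labelled KO), where 17.5% of all tested genes did (7.36% higher, 10.1% lower). On day 1 the count was 5 (2 higher, 3 lower, beside 42.2% of all genes, 22.9% higher and 19.2% lower), on day 3 it was 4 (1 higher, 3 lower, beside 43.2%, 24% higher and 19.2% lower) and on day 6 it was 7 (5 higher, 2 lower, beside 42.9%, 22% higher and 20.8% lower). The median log2 fold change of the 9 was 0.09, -0.28, -0.18 and 0.30 on days 0, 1, 3 and 6, beside 0.00, 0.03, 0.04 and 0.00 over all tested genes. Groups that do not overlap in CPM, as described for single genes below, were common. This held for 51.6%, 47.1%, 60.4% and 51.7% of all tested genes on days 0, 1, 3 and 6. Of the 2 genes called higher on day 1, Trim63 had 2 to 4 counts in control, at the floor. In these bulk samples fewer cells of a type and less RNA per cell cannot be told apart. The day 0 count was 1 without control replicate 2 (10.3% of all genes), and the day 1 count was 3 without control replicate 1 (36.6%) and 2 in a fit of only the groups compared (28% of 12900 genes).

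**Figure D2:**
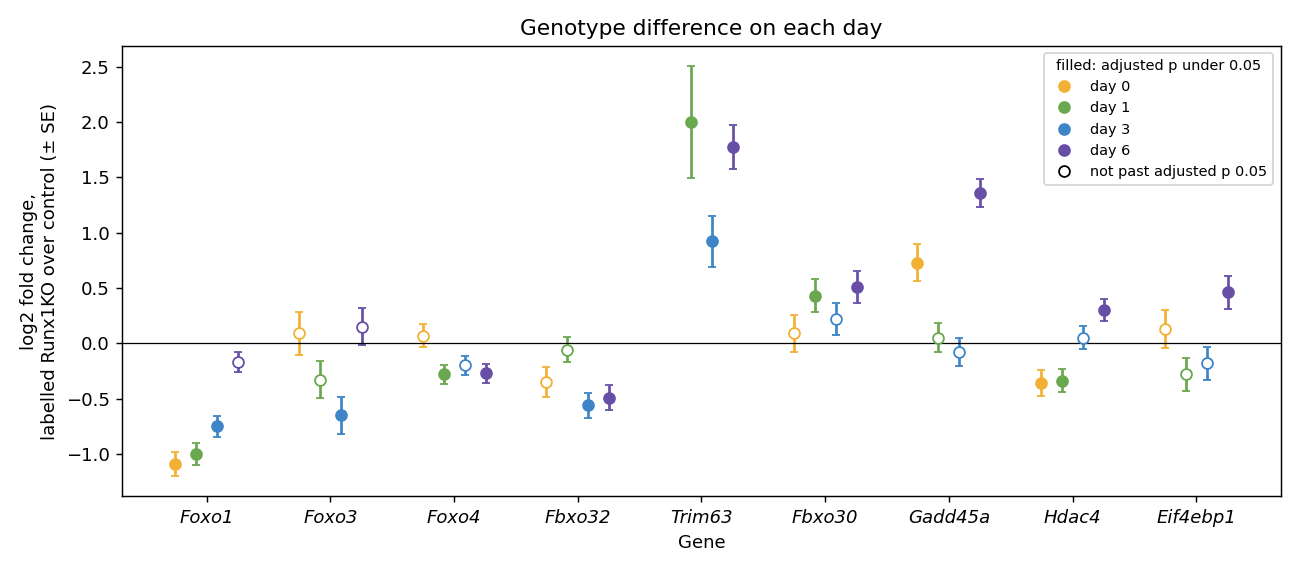
Log2 fold change of libraries labelled Runx1KO over control (y axis, ± SE) for the 9 tested genes (x axis), coloured by day, with filled points where the adjusted p was under 0.05. Trim63 on day 0 is left out because its counts were 0 or 1. Foxo1 is at -1.09 on day 0 and -0.17 on day 6, and the highest points on day 6 are Trim63 (1.77) and Gadd45a (1.36).

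Promoters are shown for Foxo1, Trim63 and Gadd45a, the FoxO factor, the ligase and the stress gene with the largest differences between genotypes, a choice made with those values known. Each sequence runs 5′ to 3′ on the strand of the gene, from 250 bases before to 50 bases after the RefSeq start in build GRCm38.p6, and capitals mark the letters of any motif searched. RefSeq promoters were matched for 7 of the 10 genes. None was matched for Foxo4, Fbxo32 or Eif4ebp1, so their promoters were not searched.
Foxo1 (chr3:52268087-52268386, plus strand): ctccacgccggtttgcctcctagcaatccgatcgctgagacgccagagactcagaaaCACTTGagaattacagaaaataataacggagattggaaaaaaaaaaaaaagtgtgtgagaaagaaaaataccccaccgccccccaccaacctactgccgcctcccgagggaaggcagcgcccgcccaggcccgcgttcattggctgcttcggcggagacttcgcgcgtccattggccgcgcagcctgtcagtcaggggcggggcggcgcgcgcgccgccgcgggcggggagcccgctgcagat
Trim63 (chr4:134314870-134315169, plus strand): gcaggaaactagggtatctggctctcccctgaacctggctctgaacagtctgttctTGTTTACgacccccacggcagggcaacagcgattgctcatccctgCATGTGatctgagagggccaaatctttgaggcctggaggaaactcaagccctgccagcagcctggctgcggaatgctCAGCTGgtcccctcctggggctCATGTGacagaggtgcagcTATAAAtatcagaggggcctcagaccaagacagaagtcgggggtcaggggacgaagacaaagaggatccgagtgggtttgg
Gadd45a (chr6:67037358-67037657, minus strand): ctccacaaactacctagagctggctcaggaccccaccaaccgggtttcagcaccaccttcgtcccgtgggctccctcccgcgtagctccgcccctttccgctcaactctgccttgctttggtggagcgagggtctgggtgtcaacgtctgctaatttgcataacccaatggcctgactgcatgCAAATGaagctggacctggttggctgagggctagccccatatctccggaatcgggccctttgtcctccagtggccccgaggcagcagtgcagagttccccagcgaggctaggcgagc
The motifs searched on both strands were GTAAACA (a core FoxO site), TGTGGT (a core Runx site), CANNTG and TATAAA, and no match overlapped another. CANNTG is the general E-box, not only that of MyoD-family factors, and reads the same on both strands. GTAAACA occurred in 1 of the 7 promoters, that of Trim63, where it begins 194 bases before the start on the opposite strand (TGTTTAC as printed). This motif was present in 3.55% of 27025 RefSeq promoters of the same length. Trim63 also held E-boxes 149, 72 and 50 bases before the start and a TATAAA 31 bases before it, while 72.1% of all promoters held an E-box and 14.2% a TATAAA. Foxo1 and Gadd45a each held 1 E-box, 193 and 67 bases before the start. TGTGGT, present in 16.9% of all promoters, was in none of the 7 windows. These are matches of letters, not measured sites.

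Foxo1, the FoxO factor known for regulating myoblast fusion and metabolism, was lower in libraries labelled KO until day 3. At day 0 it read 31.2 and 26.8 CPM in control and 14.3, 14 and 12.5 CPM in libraries labelled KO. On day 1 it read 30.4, 30.9 and 27.8 CPM against 14.6, 14.5 and 15.4 CPM, and on day 3 38.1, 37.3 and 43.9 CPM against 25.9, 24.1 and 20.9 CPM. Every control library was above every library labelled KO on those days. The log2 fold change was -1.09 ± 0.107 (SE; adjusted p = 6.52e-08), -1 ± 0.0968 (2.41e-08) and -0.75 ± 0.0934 (7.32e-07), so Foxo1 was 2.13-fold, 2-fold and 1.68-fold lower. On day 6 the groups overlapped, at 52, 44.9 and 53 CPM in control and 46.4, 44.4 and 42.8 CPM in libraries labelled KO. The day 6 difference was -0.17 (95% confidence interval -0.35 to 0.02, adjusted p = 0.148). The change in the difference since day 0 was itself tested as an interaction: 0.92 ± 0.141 by day 6 (adjusted p = 5.75e-05), and 0.34 by day 3 (interval 0.05 to 0.64, adjusted p = 0.142). Foxo1 rose 3.27-fold from day 0 to day 6 in libraries labelled KO (log2 1.71 ± 0.0974) and 1.72-fold in control (log2 0.78 ± 0.105). By mean CPM its 8 groups stood in the order labelled KO on day 0 (13.6), day 1 (14.8) and day 3 (23.6), control on day 0 (29), day 1 (29.7) and day 3 (39.8), labelled KO on day 6 (44.5) and control on day 6 (49.9). The ranges of neighbours overlapped between control days 0 and 1, between control day 3 and labelled KO day 6, and between both day 6 groups.

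Foxo3, which in adult muscle drives both proteasomal and autophagic genes, separated the genotypes on 1 day. At day 0 it was 24.6 and 19.6 CPM in control and 26.5, 22.4 and 21.7 CPM in libraries labelled KO. On day 3 it was 52.9, 56.9 and 53.4 CPM in control and 40.7, 28.1 and 35.4 CPM in libraries labelled KO, with no overlap. The day 3 difference was -0.65 ± 0.167 (adjusted p = 0.00318). On days 0, 1 and 6 the groups overlapped and the differences were 0.09 (interval -0.32 to 0.50, and -0.01 on TPM scales), -0.33 (-0.68 to 0.02) and 0.15 (-0.19 to 0.49), with adjusted p of 0.829, 0.118 and 0.492. Leaving out replicate 3 of the day 1 group labelled KO gave -0.48 with an adjusted p of 0.0343 on day 1. Without a filter on low counts the day 1 value was -0.35 with an adjusted p of 0.0342. The day 6 difference was -0.02 without replicate 1 of the group labelled KO and 0.00 without control replicate 2. The interaction by day 3 was -0.74 ± 0.259 and missed the threshold (adjusted p = 0.0729), though it passed in 6 alternatives (-0.75 to -0.87). Foxo3 rose from day 0 in both genotypes, by 1.1, 1.3 and 1.15 on the log2 scale in control on days 1, 3 and 6, and by 0.68, 0.56 and 1.22 in libraries labelled KO. The 0.56 was 0.43 (adjusted p = 0.0574) without replicate 1 of the day 3 group labelled KO.

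Foxo4, another Akt-regulated member of the family, was modestly lower in libraries labelled KO in differentiation medium. It read 42.1, 39 and 38.9 CPM in control on day 1 and 31.8, 35.5 and 31.8 CPM in libraries labelled KO. On day 6 it read 36.4, 39.1 and 40.5 CPM against 33.9, 29.2 and 32.9 CPM, again without overlap. The differences on days 1 and 6 were -0.28 ± 0.0842 (adjusted p = 0.0111) and -0.27 ± 0.0844 (0.0112). The former was -0.30 with an adjusted p of 0.0547 in a fit of only the groups compared. The latter was -0.21 with an adjusted p of 0.0804 without replicate 2 of the day 6 group labelled KO. On day 3 the groups did not overlap (36.1 to 39.2 against 31.3 to 34.2 CPM) and the difference of -0.20 had an adjusted p of 0.0559, which was under 0.05 in 7 alternatives. At day 0 the difference was 0.07 (interval -0.14 to 0.28, adjusted p = 0.715), and -0.03 and -0.04 on TPM scales. Most of the rise of Foxo4 was in place by day 1: log2 1.12, 1.04 and 1.07 above day 0 on days 1, 3 and 6 in control, and 0.77, 0.76 and 0.73 in libraries labelled KO. Steps between later days were -0.08 to 0.04 and none passed.

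Added together on the TPM scale, the 3 FoxO mRNAs rose from 31.5 TPM (27.5 to 35.4) at day 0 to 72 TPM (58.8 to 88.5) on day 6 in control, and from 26.5 TPM (24 to 29.8) to 63.4 TPM (56.4 to 75.5) in libraries labelled KO. On day 3 the sums were furthest apart, at 67.3 to 73 TPM in control and 40.8 to 47.6 TPM in libraries labelled KO. Foxo1 made up 26.2% of the sum in control at day 0 (25.6% to 26.9%) and 14% in libraries labelled KO (13.3% to 14.5%), and on day 6 it made up 22.6% and 20.9%, with overlapping ranges.

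**Figure D3:**
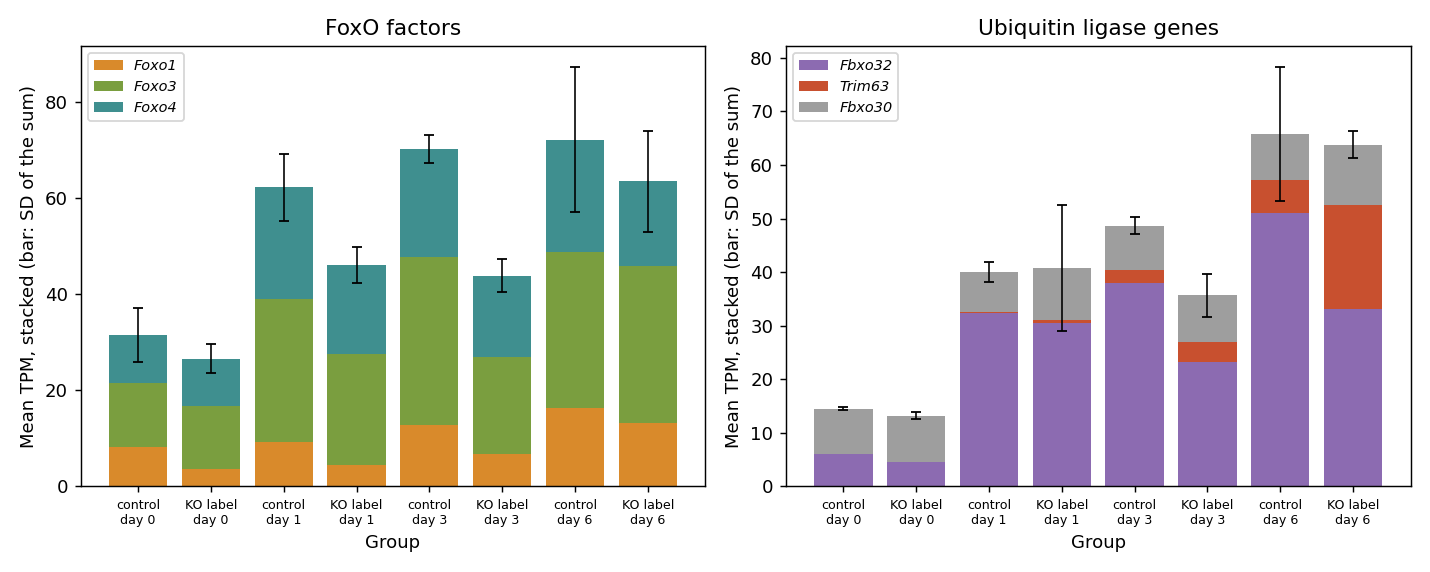
Mean TPM stacked by gene (y axis, from 0) in the 8 groups (x axis), for the 3 FoxO factors on the left and the 3 ubiquitin ligase genes on the right, with bars of ± SD on the sum. The FoxO sum is 70.1 TPM in control and 43.9 TPM in libraries labelled KO on day 3. On day 6 the ligase sums are 65.8 and 63.7 TPM, with Trim63 at 9.07% and 30.4% of them.

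Fbxo32 encodes atrogin-1, the F-box subunit that brings substrates such as MyoD and eIF3f to an SCF ubiquitin ligase. It rose strongly in both genotypes and was lower in libraries labelled KO late in the course. At day 0 it was 26.9 and 26.2 CPM in control and 22.9, 22.5 and 16.8 CPM in libraries labelled KO. Day 3 values were 155, 148 and 146 CPM against 106, 104 and 94.3 CPM, and day 6 values 197, 180 and 218 CPM against 149, 140 and 136 CPM. No library labelled KO reached the lowest control library on those days. The differences were -0.56 ± 0.113 on day 3 (adjusted p = 0.000323) and -0.49 ± 0.113 on day 6 (0.00116), which are 1.48-fold and 1.4-fold lower. At day 0 the groups did not overlap, but the difference of -0.35 ± 0.138 had an adjusted p of 0.0839. It passed narrowly in a fit of only the groups compared (-0.35, 0.0486). On day 1 the library that stood apart (156 CPM) was above and its mates (106 and 117 CPM) below the control range of 127 to 139 CPM. With it the difference was -0.06 (interval -0.29 to 0.18, adjusted p = 0.718), without it -0.26 ± 0.0935 (0.0317), and without replicate 1 of that group 0.05. From day 0, Fbxo32 rose 4.95-fold, 5.64-fold and 7.48-fold by days 1, 3 and 6 in control and 6.08-fold, 4.89-fold and 6.82-fold in libraries labelled KO. None of the 3 interactions passed (log2 0.30, -0.21 and -0.13, adjusted p of 0.400, 0.549 and 0.722). The step from day 3 to day 6 was 0.41 in control (adjusted p = 0.0208, and 0.0531 to 0.0898 without any of 5 of its 6 libraries, all but control day 6 replicate 2, or 0.0898 and 0.112 on TPM scales) and 0.48 in libraries labelled KO (0.00147).

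Trim63 encodes MuRF1, a RING-finger ligase that sits at the sarcomere and tags thick-filament and troponin proteins. Of the 10 genes it had the largest rise from day 0 to day 6 in both genotypes. It had 0 counts in both control libraries at day 0, and 1, 0 and 0 counts in those labelled KO, so no genotype fold is given for that day. On day 1 it had 2, 4 and 3 counts in control and 10, 15 and 11 in libraries labelled KO. On day 3 the counts were 41, 46 and 53 against 123, 70 and 63, and on day 6 they were 142, 94 and 125 against 366, 426 and 429. Libraries labelled KO were above control on each of these days. The log2 fold change was 0.92 ± 0.231 on day 3 (adjusted p = 0.00262) and 1.77 ± 0.199 on day 6 (1.78e-07). On day 1 the fit gave 2.00 ± 0.502 (interval 0.95 to 3.04, 0.0028). Control counts on that day were at the floor, so the size of this value is not a measured fold. Day 6 levels were 6.1, 4.17 and 5.24 CPM in control and 16.1, 18.3 and 18.7 CPM in libraries labelled KO, 3.42-fold apart. The day 3 value was 0.55 (0.044) without replicate 1 of the group labelled KO, the library with 123 counts. On TPM scales day 1 gave 0.36 with a pseudocount of 1 (adjusted p = 0.0636) and day 3 gave 0.58 with a pseudocount of 0.1 (0.0657). On day 1 control, at 0.128 CPM, was at the floor of 3 counts per library (0.135 CPM at day 0), so no fold over day 0 is given. Against that floor control was at least 15-fold higher on day 3 and at least 38.2-fold higher on day 6. In libraries labelled KO the summed counts were 36, 256 and 1221 on days 1, 3 and 6 beside 1 at day 0, ratios of 34.2, 249 and 1150 with 95% counting intervals of 5.76 to 1390, 44.4 to 9890 and 207 to 45600. Myotube markers moved with this difference (2880 to 3540 TPM against 16700 to 19800 TPM in sum on day 6), and their part in it was not tested.

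Fbxo30 encodes MUSA1, an SCF F-box protein whose gene is held down by BMP signalling and rises on denervation. It stood at 24, 21.7 and 26.3 CPM in control on day 6 and at 33.4, 34.5 and 34.5 CPM in libraries labelled KO. The day 6 difference was 0.51 ± 0.147 (adjusted p = 0.00726), and on TPM scales it was 0.35 and 0.38 (0.0933 and 0.0942). On day 1 the difference of 0.43 (adjusted p = 0.0242) rested on 1 library: control read 20.8, 21.4 and 21.6 CPM, libraries labelled KO 21.8, 40.5 and 23.2 CPM, and without the highest it was 0.06 (adjusted p = 0.638). Leaving out any single control library of that day gave 0.41 to 0.44 (0.0501 to 0.0797). The call was also lost by library size alone (0.39, 0.0509), on TPM scales (0.29 and 0.32, 0.169 and 0.17) and in a fit of only the groups compared (0.41, 0.205). That library is the one whose deviations followed GC content, and the longest Fbxo30 transcript has 38.2% GC, at percentile 2.47 of the tested genes; the part of GC content in this value was not tested. At day 0 and on day 3 the differences were 0.09 and 0.22 (adjusted p of 0.806 and 0.245). No change of Fbxo30 from day 0 passed in either genotype (log2 -0.33 to 0.26), but without that library it fell by day 1 in libraries labelled KO (-0.33, adjusted p = 0.00337). In control its fall passed in 2 alternatives by day 1 and in 1 by day 3. In libraries labelled KO its rise by day 6 passed in 1 alternative.

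The 3 ligase mRNAs together came to 65.8 TPM (54 to 78.9) in control and 63.7 TPM (61.3 to 66.4) in libraries labelled KO on day 6. Their make-up differed: Trim63 was 9.07% of the sum in control (7.96% to 10.1%) and 30.4% in libraries labelled KO (27.1% to 32.1%). Fbxo32 made up 77.7% (76.7% to 78.7%) and 51.9% (49.9% to 55.4%), and Fbxo30 13.2% and 17.7%. On day 3 the sum was lower in libraries labelled KO, at 31.4 to 39.3 TPM against 46.8 to 49.9 TPM.

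Gadd45a, a small stress-induced nuclear protein that rises on denervation and is a target of ATF4 in atrophying muscle, was higher in libraries labelled KO at both ends of the course. At day 0 it read 9.63 and 9.03 CPM in control and 14.7, 18.8 and 13.1 CPM in libraries labelled KO. On day 3 it read 49.2, 45.1 and 57.1 CPM against 52.1, 44.3 and 46.8 CPM, and on day 6 103, 83.6 and 73.3 CPM against 188, 236 and 246 CPM. The groups overlapped on days 1 and 3 and were apart on days 0 and 6. The differences were 0.73 ± 0.17 (adjusted p = 0.00355), 0.05 (interval -0.22 to 0.33, 0.77), -0.08 (-0.35 to 0.19, 0.646) and 1.36 ± 0.126 (5.96e-09) on days 0, 1, 3 and 6. The first was 0.69 with an adjusted p of 0.0508 without control replicate 2, the second -0.01 without the day 1 library that stood apart, and the third 0.02 without control replicate 3. As interactions with day 0, the difference fell by 0.81 by day 3 (adjusted p = 0.0142) and rose by 0.63 by day 6 (0.0494). The first missed the threshold without replicate 2 of the day 0 group labelled KO (-0.65, 0.0557) or control day 0 replicate 2 (-0.77, 0.0914). The second missed it in 12 of 20 alternatives: with RLE scaling (0.62, 0.0551), library size only (0.62, 0.0514), only the groups compared (0.62, 0.0886), a replicate block (0.63, 0.0695), and without any of 8 of the 11 libraries (0.47 to 0.68, 0.0851 to 0.239; replicates 1 and 3 of labelled KO day 0, 1 and 2 of control day 0, 2 and 3 of labelled KO day 6, 2 and 3 of control day 6). From day 3 to day 6 it rose 1.72-fold in control and 4.68-fold in libraries labelled KO (log2 0.78 ± 0.127 and 2.23 ± 0.131). Its step from day 1 to day 3 in libraries labelled KO (0.42, adjusted p = 0.02) missed the threshold without replicate 1 of that group on day 1 (0.34, 0.0766) or day 3 (0.35, 0.0869), on TPM scales (0.33, 0.0631, and 0.34, 0.0639) and in a fit of only the groups compared (0.39, 0.0536).

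Hdac4, a class IIa histone deacetylase that accumulates after denervation and releases myogenin from repression, changed order between the genotypes. At day 0 it read 20.9 and 23.6 CPM in control and 17.5, 17 and 17.5 CPM in libraries labelled KO. On day 1 it read 30.8, 27.2 and 26.5 CPM against 24.1, 18.5 and 24.4 CPM, and on day 6 28.5, 23 and 29.3 CPM against 36.3, 32.4 and 31 CPM. The groups did not overlap on these days, which was also so for 51.6%, 47.1% and 51.7% of all tested genes. The differences were -0.36 ± 0.119 at day 0 (adjusted p = 0.0384), -0.34 ± 0.104 on day 1 (0.012), 0.05 on day 3 (interval -0.16 to 0.27, 0.711) and 0.30 ± 0.103 on day 6 (0.0205). These are small calls: without any single day 0 library the first had an adjusted p of 0.0762 to 0.318, and on TPM scales it was -0.34 and -0.41 (0.0866 and 0.0674). The day 1 value was -0.36 (0.0653) in a fit of only the groups compared, -0.24 (0.0569) without the library that stood apart and -0.28 (0.0602) without control replicate 1. The day 6 value was 0.21 (0.148) without replicate 1 of the group labelled KO and 0.20 (0.137) without control replicate 2, and on TPM scales it was 0.14 and 0.17 (0.331 and 0.346). It was 0.23 (0.0831) by library size alone and 0.29 (0.0555) in a fit of only the groups compared. The day 3 value was 0.00 by library size alone and -0.09 and -0.11 on TPM scales. The interaction by day 6 was 0.66 ± 0.157 (adjusted p = 0.00549), and 0.57 (0.0567) without control day 0 replicate 2. On TPM scales it missed the threshold, at 0.48 (0.0627) and 0.58 (0.0613). Hdac4 rose 1.29-fold, 1.61-fold and 1.92-fold from day 0 by days 1, 3 and 6 in libraries labelled KO. In control its ratio to day 0 was 1.27, 1.21 and 1.21 on days 1, 3 and 6 (adjusted p of 0.0169, 0.0501 and 0.0433). Of these, the first was 0.30 on the log2 scale (0.108) without control day 0 replicate 1. The last missed the threshold without that library (0.23, 0.192) or without control day 6 replicate 1 or 3 (0.29, 0.0577, and 0.28, 0.0597), without a filter (0.26, 0.0851) and in a fit of only the groups compared (0.28, 0.0771). The middle one passed in 8 alternatives (0.29 to 0.45).

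Eif4ebp1 encodes 4E-BP1, which binds the cap-binding protein eIF4E and holds back translation until mTORC1 phosphorylates it. It was the most abundant of the 10 mRNAs in every group. On day 6 it read 336, 342 and 248 CPM in control and 396, 437 and 443 CPM in libraries labelled KO, a difference of 0.46 ± 0.15 (adjusted p = 0.0152). Without control replicate 3, the lowest, it was 0.30 (0.128). At day 0 the difference was 0.13 (interval -0.22 to 0.48) and on day 3 it was -0.18 (-0.49 to 0.13), with adjusted p of 0.693 and 0.342. The groups did not overlap on either day, and the day 3 difference passed in 1 alternative. On day 1 the library that stood apart read 139 CPM beside 266 and 259 CPM in its mates and 257 to 281 CPM in control. The difference was -0.28 with it (adjusted p = 0.141), -0.06 without it (0.671), and -0.43 and -0.41 (0.0309 and 0.0486) without either of its mates. With all libraries it passed without a filter (-0.30, 0.0402) and on TPM scales (-0.37 on both, 0.0334 and 0.033). In control Eif4ebp1 did not pass on any day against day 0 (-0.12 to 0.08). In libraries labelled KO it fell by 0.53 by day 1 (adjusted p = 0.00522), or by 0.27 (0.0143) without the library that stood apart, and missed the threshold in a fit of only the groups compared (-0.52, 0.0814). From day 3 to day 6 it rose 1.58-fold in libraries labelled KO (log2 0.66 ± 0.15, adjusted p = 0.00107).

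Klf15, a glucocorticoid-induced zinc-finger factor that raises amino acid breakdown in muscle, was near or below the floor throughout. Control libraries had 0 and 0 counts at day 0, 0, 3 and 0 on day 1, 4, 1 and 0 on day 3, and 6, 7 and 7 on day 6. Libraries labelled KO had 0 counts on days 0, 1 and 3 and 0, 0 and 2 on day 6. The day 6 sums of 20 and 2 counts are a ratio of 9.89 with a 95% counting interval of 2.4 to 87.2. When no filter on low counts was used, the day 6 contrast passed narrowly over 20467 genes (adjusted p = 0.0491).

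Over time, 6 of the 9 tested genes rose from day 0 to day 1 in control and none fell, where 27.1% of all tested genes rose and 54.7% were called in either direction. The 6 include Trim63, whose day 1 control level was at the floor. By day 3 again 6 rose (29.2% of all genes, 58.2% either way) and by day 6, 7 rose (32.6%, 63.6% either way). In libraries labelled KO, 6 rose and Eif4ebp1 fell by day 1 (27.2% of all genes rose, 25.2% fell, 52.3% either way), 7 rose by day 3 (30.4%, 57.6%) and 8 by day 6 (36.6% rose, 33.5% fell, 70% either way). Fbxo30 was the 1 tested gene that passed against day 0 on none of these days. The median log2 change of the 9 genes was 1.1, 1.04 and 1.07 in control on days 1, 3 and 6, and 0.68, 0.76 and 1.22 in libraries labelled KO on days 1, 3 and 6, beside 0.02 to 0.05 over all genes. From day 3 to day 6, 6 of the 9 rose in libraries labelled KO (41.3% of all genes were called, 20.2% higher and 21.2% lower) and 4 in control (9.79%, 4.87% higher and 4.92% lower), or 2 in control without day 3 replicate 1 or 2 or day 6 replicate 1 or 3 or on TPM scales (5.39% to 11.2% of all genes). From day 1 to day 3, 3 rose in control (19.7% of all genes called, 11% higher and 8.68% lower), and 5 passed in a fit of only the groups compared, where 35.6% of 13037 genes did. In libraries labelled KO 4 rose and Fbxo32 fell (26.7% called, 15.5% higher and 11.2% lower), 5 in all, which became 3 without day 1 replicate 2 or day 3 replicate 2 (28.3% and 20.9% of all genes) and 2 without day 3 replicate 1, on TPM scales (22.5% to 22.9%) or in a fit of only the groups compared (12.9%). Fbxo32 fell by 0.32 there (adjusted p = 0.0419) but by 0.16 (0.223) without the day 1 library that stood apart, and it missed the threshold without any single day 3 library (0.0542 to 0.151), on TPM scales (0.0813 and 0.087) and in a fit of only the groups compared (0.185). As interactions with day 0, none of the 9 passed on day 1 (3.95% of all genes did, 2.64% upward and 1.31% downward), 1 passed downward on day 3 (10.7%, 6.65% upward and 4.06% downward) and 3 passed upward on day 6 (13%, 7.54% upward and 5.42% downward). By unadjusted edgeR p-values, 2 of the 9, Foxo4 (0.0145) and Gadd45a (0.00446), were under 0.05 on day 1, where 18% of all genes were, and DESeq2 called 1 (6.8% of all genes). The day 3 count was 4 in a fit of only the groups compared, where 19.2% of 13616 genes were called, which added Foxo3 (-0.78, adjusted p = 0.00539), Hdac4 (0.37, 0.0204) and Eif4ebp1 (-0.35, 0.0039) to Gadd45a. It was 2, with Foxo3, without a filter, with an average of 50 counts, in DESeq2, with the replicate block and without labelled KO day 3 replicate 1 (7.27% to 13.4% of all genes), and 0 without control replicate 2 or labelled KO replicate 2 of day 0 (5.69% and 8.55%). The day 6 count was 1 without control day 0 replicate 2 (8.13%). On day 1 it was 1 without a filter and without replicate 3 of labelled KO day 0 or replicate 2 of labelled KO day 1 (3.08% to 4.07%).

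**Figure D4:**
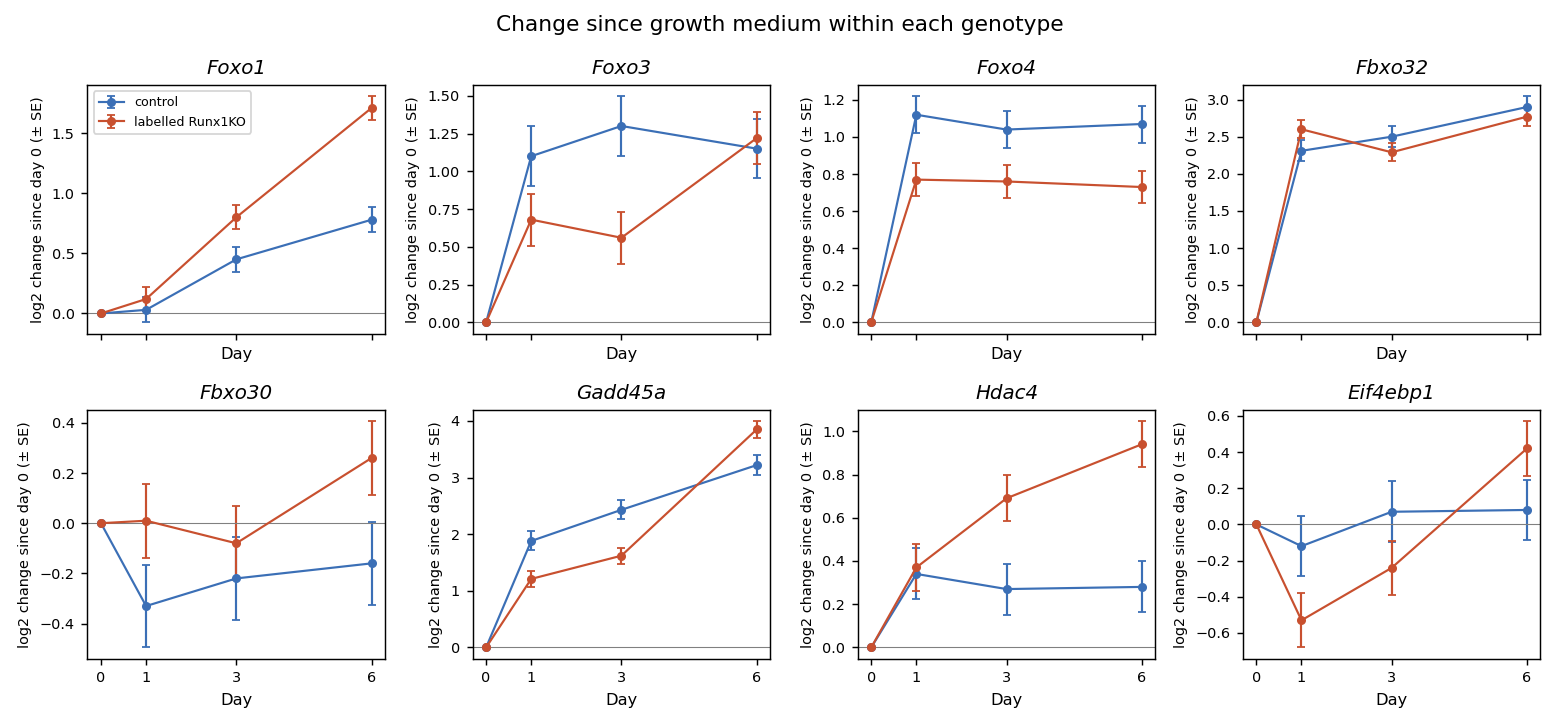
Log2 change since day 0 (y axis, ± SE, with a scale of its own in each panel) against day (x axis, to scale) within each genotype for 8 of the 9 tested genes, with control in blue and labelled Runx1KO in red. Trim63 is left out because its day 0 counts were 0 or 1. Foxo1 reaches 1.71 in libraries labelled KO and 0.78 in control on day 6, and Fbxo32 reaches 2.77 and 2.90.

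The genes whose pattern over the 8 group means was most like that of 3 members were found by Pearson correlation of log2 CPM among 9908 genes with at least 10 CPM in a group. They are descriptions, since the groups share genotype and day. For Foxo1 they were Mboat2 (r = 0.977), Blcap (0.969) and Gfra2 (0.967). Mboat2 read 11.4 and 5.65 CPM in control and labelled KO at day 0 and 19.5 and 20.8 CPM on day 6. For Fbxo32 they were Zfyve1 (0.996), Pik3ip1 (0.994), which encodes a negative regulator of PI3 kinase, and Fbxl20 (0.994). Pik3ip1 rose from 4.31 CPM at day 0 to 44.9 CPM on day 6 in control and from 3.74 to 25.7 CPM in libraries labelled KO. For Trim63 they were Myom3 (0.993), Myl1 (0.993) and Lmod2 (0.992), genes of the sarcomere. Myl1, a myosin light chain, stood at 93.6 ± 22.7 CPM in control and 617 ± 103 CPM in libraries labelled KO on day 6. Among the members, the mean log2 CPM of Fbxo32 ran closest to that of Foxo4 (r = 0.96) and Foxo3 (0.93), and that of Trim63 to Gadd45a (0.94), while Fbxo32 and Foxo1 gave 0.58.

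The rest of the pathway was described with 9 lists that hold none of the 10 genes. Their counts are to be read beside the shares of all tested genes that were higher and lower in libraries labelled KO: 7.36% and 10.1% at day 0, 22.9% and 19.2% on day 1, 24% and 19.2% on day 3, and 22% and 20.8% on day 6. Upstream of FoxO, 5 of 18 insulin and Akt-pathway genes were higher and 5 lower in libraries labelled KO on day 6 (median log2 fold change 0.04, beside 0.00 over all tested genes), with 5 and 3 on day 3, 6 and 1 on day 1 and 3 and 0 at day 0. Akt2, the Akt isoform of insulin-responsive tissue, stood at 161 CPM in control and 336 CPM in libraries labelled KO on day 6 (log2 1.06 ± 0.089, adjusted p = 1.12e-09). Foxo6, a further FoxO gene, was lower (23.7 against 14.2 CPM, -0.73 ± 0.169, 0.00113), as were Irs1 (-0.43, 0.00113) and Phlpp1 (-0.40, 0.00406), an Akt phosphatase.

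Among 20 other ubiquitin ligases and partners tested (21 listed), 6 were higher and 2 lower on day 6 (median 0.12, beside 22% and 20.8% of all genes), 9 and 3 on days 3 and 1, and 4 and 2 at day 0. Without the day 1 library that stood apart the day 1 counts were 4 and 3. The higher genes on day 6 included the close MuRF relatives Trim54 (2.58 ± 0.129, adjusted p = 1.3e-13) and Trim55 (1.92 ± 0.14, 1.09e-10), which encode MuRF3 and MuRF2. Asb2, which encodes a substrate receptor of a cullin ligase in muscle, was higher on every day, at 0.181, 0.936, 4.56 and 6.17 CPM in control and 1.49, 7.44, 34.7 and 60.5 CPM in libraries labelled KO (day 6 log2 3.29 ± 0.153, 3.8e-14). Fbxl22, an F-box protein of the sarcomere, was at 1.54 and 27.7 CPM on day 6 (4.16 ± 0.275, 1.88e-11). All 16 myotube markers were higher on day 6 as well (median log2 2.59), and their part in these differences was not tested. Trim32 and Nedd4l were lower (-0.27 and -0.22, adjusted p of 0.0102 and 0.0179). Of 15 ubiquitin and proteasome genes, 8 were higher and none lower on day 6 (median 0.28, beside 22% and 20.8% of all genes), 7 and 0 on day 3, 10 and 0 on day 1 and 2 and 0 at day 0, and day 1 gave 6 and 0 without the library that stood apart. Psmc4, an ATPase of the proteasome cap, was 76.2 against 113 CPM on day 6 (0.57 ± 0.0795, 3.4e-06), and Psmd8 was 239 against 324 CPM (0.44 ± 0.0831, 0.000162). Within each genotype these genes moved the other way over time: 12 of 15 fell by day 6 in both, where 31.1% of all genes fell in control and 33.5% in libraries labelled KO, and Ubb, a polyubiquitin gene, rose in libraries labelled KO. The median changes were -0.71 in control and -0.46 in libraries labelled KO, beside 0.05 over all genes in each.

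**Figure D5:**
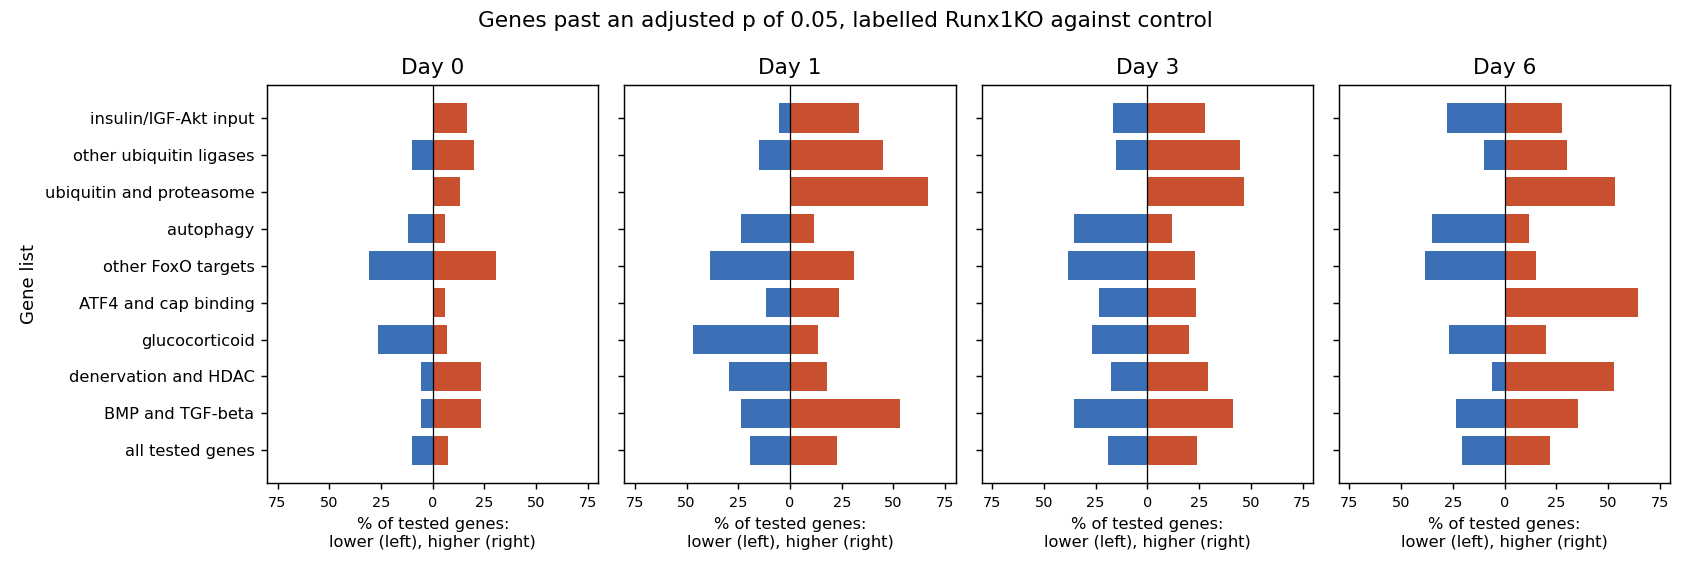
Share of tested genes of each list (y axis) that passed an adjusted p of 0.05 on each day, in percent (x axis), with genes lower in libraries labelled Runx1KO to the left and higher to the right, and all tested genes in the last bar (22% higher and 20.8% lower on day 6). On day 6 the ATF4 and cap-binding list and the proteasome list have no bar to the left.

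Of 17 autophagy genes known as FoxO targets, 2 were higher and 6 lower on day 6 (median -0.15, beside 22% and 20.8% of all genes), 2 and 6 on day 3, 2 and 4 on day 1 (0 and 6 without the library that stood apart) and 1 and 2 at day 0. Gabarapl1, which coats autophagosomes, was at 88.1 against 54.1 CPM on day 6 (-0.70 ± 0.0934, adjusted p = 1.64e-06), and Ctsl, a lysosomal protease, went the other way at 469 against 662 CPM (0.50 ± 0.0758, 1.04e-05). Map1lc3a and Map1lc3b, both LC3 genes, were lower (-0.36 and -0.21, 0.0067 and 0.0152). Against day 0, 14 of the 17 rose and 2 fell by day 6 in control (32.6% and 31.1% of all genes), and 13 and 2 in libraries labelled KO (36.6% and 33.5%). Of 13 other FoxO targets tested (15 listed), 2 were higher and 5 lower on day 6 (median -0.01, beside 22% and 20.8% of all genes), 3 and 5 on day 3 (24% and 19.2%), 4 and 5 on day 1 and 4 and 4 at day 0. Sesn3, a sestrin that restrains mTORC1, was lower on every day, from -1.13 ± 0.197 at day 0 (adjusted p = 0.000187) to -0.78 ± 0.172 on day 6 (0.000806). Bcl6, a transcriptional repressor, was higher on every day, by 0.32, 0.19, 0.30 and 0.69 in order. Its day 1 value had an adjusted p of 0.0459, and of 0.11 to 0.19 without replicate 1 or 3 of the group labelled KO or control replicate 2 or 3, and its day 0 value was 0.28 (0.139) without control replicate 2.

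Of 17 genes tested for ATF4 and cap binding (18 listed), 11 were higher and none lower on day 6 (median 0.51, beside 22% and 20.8% of all genes). The counts were 4 and 4 on day 3, 4 and 2 on day 1 and 1 and 0 at day 0. Phgdh and Psat1, enzymes of serine synthesis, were at 112 against 289 CPM (1.36 ± 0.117, adjusted p = 1.75e-09) and 1.22 ± 0.0774 apart on the log2 scale (9.89e-12) on day 6, and Atf4 itself differed by 0.47 ± 0.0972 (0.000369). Cdkn1a, Asns, Ddit3, Trib3 and Chac1 were among the other higher genes on day 6 (1.03, 1.02, 0.51, 0.68 and 0.79). On day 3 Trib3 and Ddit3 were lower in libraries labelled KO (-1.28 and -0.50, adjusted p of 5.41e-06 and 0.00782). Cdkn1a, Asns and Chac1 did not pass on day 3 (0.30, -0.23 and -0.43). Gadd45a was higher on day 6 too, as were interferon-response and myotube genes, whose part in these differences was not tested. Of 15 glucocorticoid-receptor and KLF15-linked genes, 3 were higher and 4 lower on day 6 (median 0.12, beside 22% and 20.8% of all genes, which is near these counts), 3 and 4 on day 3, 2 and 7 on day 1 and 1 and 4 at day 0. Cebpd, a C/EBP factor, was at 35.9 against 103 CPM on day 6 (1.52 ± 0.161, 5.27e-08), and the clock gene Per1 was lower on every day, at 73.6 against 47 CPM on day 6 (-0.64 ± 0.105, 2.65e-05). The day 0 value of Per1 (-0.46, 0.00992) did not pass without control replicate 1 (-0.37, 0.16) or replicate 3 of the group labelled KO (-0.40, 0.054).

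Of 17 genes tested for the class IIa HDAC and denervation axis (18 listed), 9 were higher and 1 lower on day 6 (median 0.27, beside 22% and 20.8% of all genes), 5 and 3 on day 3, 3 and 5 on day 1 and 4 and 1 at day 0. Mef2c, a MADS-box factor bound by HDAC4, had 0 counts in control on days 1 and 3, where libraries labelled KO had 0, 5 and 0 and then 29, 19 and 28. On day 6 it had 12, 11 and 13 counts in control and 154, 183 and 167 in libraries labelled KO (3.81 ± 0.38, adjusted p = 1.07e-07). Myog, which HDAC4 raises after denervation and which also counts among the 16 myotube markers, was at 149 against 909 CPM (2.61 ± 0.258, 1.78e-08). The acetylcholine receptor subunits Chrna1, Chrnb1, Chrnd and Chrng, and Musk, the kinase that clusters them, were higher on day 6 by 0.54 to 1.01, and Hdac9 was lower (-1.25 ± 0.214, 4.86e-05). On day 1 Chrng and Chrnd were lower (-0.75 and -0.38, adjusted p of 0.000227 and 0.00194), and Chrna1, Chrnb1 and Musk did not pass. On day 3 Chrnb1, Chrnd and Musk were higher, and Chrna1 and Chrng did not pass. The 16 myotube markers were all higher on day 6 too (median log2 2.59), and their part in this was not tested. Of 17 genes of BMP and TGF-beta input, which sets Fbxo30, 6 were higher and 4 lower on day 6 (median -0.11, beside 22% and 20.8% of all genes), 7 and 6 on day 3, 9 and 4 on day 1 (6 and 4 without the library that stood apart) and 4 and 1 at day 0. Bmpr1b, a BMP receptor, was lower on every day, at 4.73 against 0.506 CPM on day 6 (-3.21 ± 0.291, 4.42e-09). Id1, a BMP target, was at 4.94 against 20.6 CPM (2.06 ± 0.155, 1.66e-10). Smad6 of the same list was lower on day 6 (-0.62, 0.000363), and Nog was higher (1.07, 4.79e-05). Sgk1 stands in both the Akt-pathway and the glucocorticoid list. Without the day 1 library that stood apart, the other lists had on day 1 5 genes higher and 1 lower (Akt pathway), 5 and 6 (FoxO targets), 6 and 1 (ATF4 and cap binding), 3 and 6 (glucocorticoid) and 4 and 6 (denervation), where 38.6% of all genes were called.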

How the data were processed

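Poly(A) RNA of C2C12 cells labelled control or Runx1KO was sequenced. Per the submitters' processing notes, Bowtie2, RSEM and the mm10 build were used; versions, annotation and use of strand are not given in the sources used here. The authors deposited estimated counts per gene symbol as whole numbers (rounding changed none) and TPM for the same genes; 790 entries with no count had some TPM and 108 the reverse. All columns were matched to samples by name. Genes were filtered with filterByExpr (minimum count 10, minimum total 15) and tested in edgeR 4.0.16 (R 4.3.3; glmQLFit and glmQLFTest, quasi-likelihood) with TMM scaling, 1 group-means fit over 23 libraries, 17 contrasts and Benjamini-Hochberg adjustment over 14187 genes at 0.05. Standard errors were derived from the F statistic, and intervals are 95%. Floors and counting intervals cover counting error only. TPM compared levels between genes. Alternatives (32 settings) were RLE scaling, library size only, testing unfiltered genes, requiring an average of 50 counts, DESeq2 1.42.0, limma 3.58.1 on log2(TPM + 1) and log2(TPM + 0.1), only the groups compared, a replicate block, and each library left out. List counts on day 1 without 1 library were added after seeing the data. The members and lists were chosen with earlier results of these data known. Named genes were Runx1, the 10 members, from each list the 2 genes with the largest day 6 change among those past the threshold with at least 1 CPM in a group, and the 3 genes most like Foxo1, Fbxo32 and Trim63; other genes named from lists were chosen after their values were seen. Promoters came from RefSeq, GRCm38.p6. The procedure was tested on simulated data.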

Additional observations from a re-analysis of the deposited data

Results flagged for a closer look

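The genotype difference passed a test of its change since day 0, the interaction of genotype and day, in 4 results. For Foxo1 the difference moved by 0.92 on the log2 scale by day 6 (adjusted p = 5.75e-05). For Hdac4 it moved by 0.66 by day 6 (0.00549), a call lost on both TPM scales (0.48 and 0.58, adjusted p of 0.0627 and 0.0613) and without control day 0 replicate 2 (0.57, 0.0567). For Gadd45a it moved by -0.81 by day 3 (0.0142) and by 0.63 by day 6 (0.0494). The day 6 call for Gadd45a was lost in 12 of 20 alternatives, among them RLE scaling (0.0551), library size only (0.0514) and only the groups compared (0.0886), and the day 3 call without replicate 2 of either day 0 group (0.0557 and 0.0914). All 4 contrasts share the day 0 libraries, and no explanation was weighed.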

How the results depend on the processing

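Of 135 results on the 9 tested genes (without day 1 interactions, and without Trim63 where day 0 enters), 72 kept their direction and their side of the threshold under every alternative. Fitting only the groups compared moved the number of genes called between genotypes on day 1 from 5981 to 3607, from day 1 to day 3 from 2797 to 4642 in control and from 3790 to 1659 in libraries labelled KO, and for interactions from 560 to 239 on day 1 and from 1519 to 2613 on day 3; such fits have fewer samples. With 1 library left out, genes called between genotypes at day 0 numbered 1265 to 2216 (2479 with all), from day 3 to day 6 in control 762 to 1579 (1389), and as interactions on days 1, 3 and 6 148 to 919 (560), 829 to 1429 (1519) and 1184 to 1861 (1839). Several directions changed. On log2(TPM + 1) and log2(TPM + 0.1), labelled KO over control became -0.01 and -0.01 for Foxo3, -0.03 and -0.04 for Foxo4 and -0.06 and -0.06 for Phgdh at day 0, -0.01 and -0.01 for Cebpd on day 1, and -0.09 and -0.11 for Hdac4 on day 3. In control, Eif4ebp1 became 0.02 from day 0 to day 1, Fbxo30 0.02 from day 0 to day 6, and Hdac4 0.00 and -0.01 from day 3 to day 6. By library size alone Phgdh was -0.05 at day 0 and Hdac4 0.00 on day 3. Foxo4 from day 3 to day 6 in libraries labelled KO became 0.02 with RLE scaling and DESeq2, 0.04 with an average of 50 counts and 0.03 on both TPM scales, and Fbxo30 from day 0 to day 1 became -0.02 without a filter. The cause was not tested. With 1 library left out, the differences on day 0 spanned -0.06 to 0.28 for Foxo3, -0.02 to 0.19 for Foxo4, -0.07 to 0.09 for Phgdh and -0.18 to 0.03 for Cebpd. On day 1 they spanned -0.26 to 0.05 for Fbxo32, -0.01 to 0.13 for Gadd45a, -0.16 to 0.36 for Foxo6 and -0.11 to 0.32 for Cebpd. They spanned -0.20 to 0.02 for Gadd45a on day 3 and -0.02 to 0.29 for Foxo3 on day 6. The Foxo3 interaction by day 6 spanned -0.16 to 0.21. In control, the change by day 1 spanned -0.07 to 0.19 for Foxo1, and that from day 3 to day 6 spanned -0.31 to 0.01 for Foxo3, 0.00 to 0.12 for Fbxo30, -0.05 to 0.11 for Hdac4 and -0.07 to 0.16 for Eif4ebp1. In libraries labelled KO, the change by day 1 spanned -0.33 to 0.17 for Fbxo30, that from day 1 to day 3 -0.28 to 0.03 for Foxo3, -0.04 to 0.02 for Foxo4 and -0.25 to 0.23 for Fbxo30, and that from day 3 to day 6 -0.07 to 0.03 for Foxo4.

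Samples with the same replicate number did not deviate together (mean correlation -0.094 to 0.048 over contrasts), so the numbers were not taken to pair samples. With the replicate block the Gadd45a interaction on day 6 was 0.63 (adjusted p = 0.0695), that of Foxo3 on day 3 -0.75 (0.0411), Fbxo30 in libraries labelled KO from day 0 to day 1 -0.01, Phgdh at day 0 0.00 and Psmc4 at day 0 0.26 (0.0577), and it changed no other call on the named genes.

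The 2 control libraries at day 0 limit every change since day 0, and the counts of Trim63 on days 0 and 1 and of Klf15 limit what can be said of them. Lists on day 1 are given without the library that stood apart, an alternative added after seeing the data.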
